A study of Gallus gallus with 24 samples.

Results

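The liver of a chicken embryo 18 days into incubation (E18) was compared with that of a fed chick 3 days after hatch (D3), the pair of ages farthest apart in expression among the 6 ages of the series. The comparison takes in 8 of the 24 arrays, 4 titled as E18 embryos and 4 as D3 hatchlings, and all 13009 genes to which the array annotation gave a symbol. All birds were Ross x Ross broilers, a cross bred for meat, and every bird is described as male, with sex checked by eye at sampling. The E18 embryos were taken from fertile eggs in an incubator. The D3 chicks had hatched, had been vaccinated against Marek's disease virus at 1 day of age (D1), and had received a starter ration and water without restriction in a heated brooder. Age, hatching, feeding, vaccination and light therefore change together between these groups and cannot be told apart.

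Before hatch the avian liver takes up yolk lipid, stores much of it as cholesterol ester, and lives by the oxidation of fatty acids. The chick that starts to eat a cereal ration makes fat from carbohydrate instead, and in birds that synthesis takes place mainly in the liver. Thyroid hormone rises around hatching and is known to promote hepatic lipogenesis and the change to warm-blooded life.

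Each array was hybridized with RNA of 1 liver on the Affymetrix Chicken Genome Array, and values are log2 intensities, so that a difference of 1 is a 2-fold change and a difference of 5 a 32-fold change. Values are listed in the order of replicates 1 to 4, means are given ± SD over 4 livers, and all ratios are the E18 level minus the D3 level, positive where the embryo was higher. A gene is called at an adjusted p of 0.05 or less in limma together with an absolute log2 ratio of 0.75 or more, and signals under 4.43 are near background, so that a ratio against them is a lower bound of its size. Levels of different genes on such an array are not compared. The developmental stage field reads E16 for the E18 and E20 livers, against their titles, which are followed here. For D1 chicks, the labels and the study's methods differ in the time they were held after hatch. E18 replicate 2 had the W-linked gene HINTW at 12.17 where the other 7 arrays lay between 5.26 and 6.05, and its 609 Z-linked genes had a median 0.21 below that of the other E18 arrays, against 0.01 above for 12356 autosomal genes, so this liver goes against its label of male. Named genes whose call changes without it are given both ways, as are the ratios of HPX, TDH and PCK1. Other ratios, that of DIO2 among them, are given only with it. List counts that change without it stand in the last paragraph. The 7 measured hepatocyte markers held array means of 13.86 to 14.00 at E18 and 13.78 to 13.85 at D3, and none was called. Among them HNF4A had a ratio of 0.57 with no overlap, and 1 marker was called higher at E18 with other probe sets per gene. The 8 markers of exocrine pancreas lay at 4.64 to 4.8 and 4.43 to 4.53 and the 8 of intestine at 5.32 to 5.52 and 5.22 to 5.33. Of the pancreas markers 1 was called higher at E18, and the highest ratio in that list was 1.42. None was called with the mean of the probe sets. No intestine marker was called. In whole liver RNA, fewer cells of a type and less RNA per cell cannot be told apart. The number of arrays limits the precision.

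Between E18 and D3, 4065 of 38439 probe sets (10.6%) were called, and 3421 of the 27168 with a single gene symbol (12.6%). With 1 probe set per gene these came to 2219 of 13009 named genes (17.1%). Of these, 785 (6.03% of named genes) were higher in the embryo and 1434 (11.0%) were higher in the chick, so 64.6% of the called genes belonged to the chick. The mean profiles of E18 and D3 lay 110.07 apart (Euclidean distance over all tested probe sets, Pearson r = 0.9621 across probe sets), ahead of E18 and D9 at 108.36, and E16 and E18 were nearest to each other at 46.31. The median ratio over all named genes was 0.03. Without adjustment 14417 probe sets had a p under 0.05, and 10489 passed the adjusted p at any ratio. The arrays of E18 and D3 did not overlap for 36.3% of all named genes, and for 736 of the 785 and 1375 of the 1434 called genes. Just inside the limit on the ratio, at 0.75 to 0.80, lay 390 probe sets that met the adjusted p, and 436 lay just outside it, at 0.70 to 0.75.

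**Figure D1:**
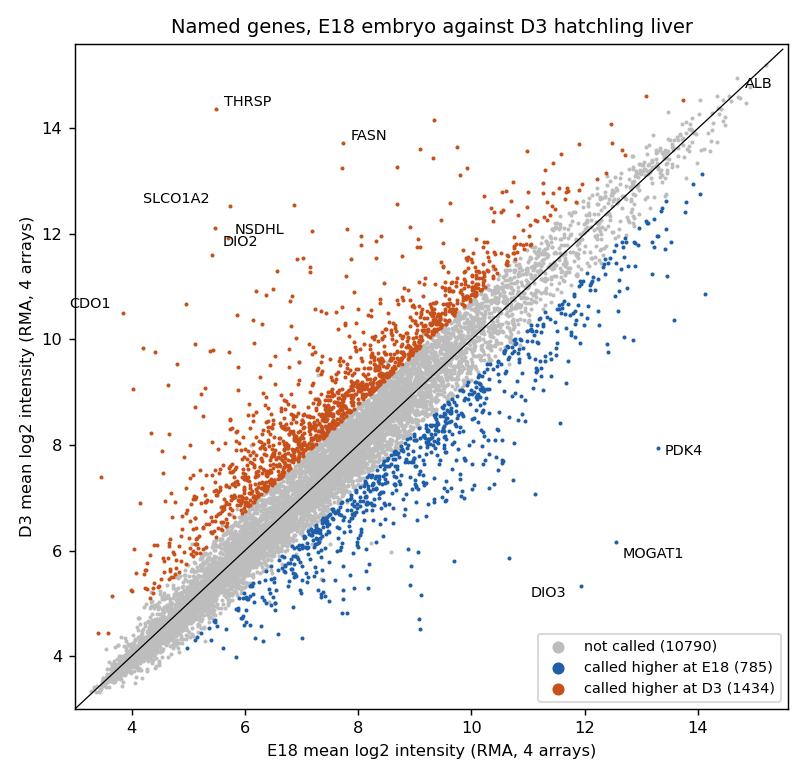
Mean log2 intensity of each named gene at D3 (vertical axis) against that at E18 (horizontal axis), 4 arrays each, with 785 genes called higher at E18 in blue, 1434 called higher at D3 in orange and the rest in grey. The cloud is wider above the diagonal, where THRSP and SLCO1A2 lie farthest out, while albumin (ALB) sits on it.

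The typical called gene moved by a similar amount in either direction, with median sizes of 1.15 at E18 and 1.14 at D3, but the far tail belonged to the chick. Ratios of 2 or more were found for 103 genes higher at E18 and 168 higher at D3, ratios of 3 or more for 18 and 70, and ratios of 5 or more for 3 and 13. The largest sizes were 6.62 for DIO3 in the embryo and 8.86 for THRSP in the chick. Of the called genes with more than 1 probe set, 345 of 480 on the E18 side and 581 of 805 on the D3 side had at least 1 probe set that was not called or went the other way, so the range of ratios over the probe sets is given in parentheses, as "probe sets from a to b", where those of a named gene disagree.

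The ages between E18 and D3 share arrays with this comparison, and their values are set beside it to show when each level changed. Between D1 and D3, age, feeding, vaccination and housing also change together and cannot be told apart. At E20, before hatch, the genes higher at D3 had covered a median of 26.0% of the way from their E18 to their D3 level, and at D1, in unfed chicks, 71.3%. The genes higher at E18 had covered 19.6% and 62.3%. By D9 the E18-side genes stood at 90.4% of that distance and the D3-side genes at 76.8%. Single steps called fewer genes, namely 4.23% of named genes from E18 to E20, 5.72% from E20 to D1 and 4.5% from D1 to D3. For 390 of the 785 and 699 of the 1434 called genes no single step was called at all.

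The 15 genes with the highest and the 15 with the lowest ratio, among called genes whose arrays did not overlap, include genes of thyroid hormone, lipid and amino acid metabolism on either side. In the embryo the list began with DIO3, MOGAT1 and PDK4, which are described with their pathways below, and went on to PPM1K, RET and FAM150B. RET, the receptor kinase for ligands of the glial cell line-derived neurotrophic factor family, was at 10.13, 9.86, 8.16 and 8.24 on the E18 arrays and at 4.58, 4.59, 4.50 and 4.34 on the D3 arrays. It was high in every embryo and close to background in every chick, with a log2 ratio of 4.59 (standard error, SE, of 0.52, adjusted p = 4.6e-07; probe sets from 0.47 to 4.59), and had reached 4.72 by D1. FAM150B, named in mammals as a ligand of the receptor kinase ALK, was at 9.23, 8.66, 8.81 and 9.57 and at 4.77, 4.64, 4.50 and 4.87, a ratio of 4.37 (adjusted p = 3.5e-10), with no overlap.

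SLC13A3, a sodium-coupled carrier of dicarboxylates, stood at 11.50, 10.81, 11.26 and 10.94 in embryos and 7.33, 7.26, 6.71 and 7.02 in chicks (ratio 4.05, adjusted p = 3.5e-09), and fell in both of the first steps, to 8.68 at E20 and 6.46 at D1. ENTPD1, which degrades extracellular ATP, was at 13.59, 13.60, 13.56 and 13.58 against 10.18, 10.35, 10.64 and 10.30, with a ratio of 3.21 (SE 0.11, adjusted p = 1.0e-15). Most of that fall came in the step from D1 (12.56) to D3. The E3 ubiquitin ligase RNF144A (3.58), the semaphorin receptor PLXNA4 (3.39; probe sets from 0.14 to 3.39), the carbonic anhydrase CA13 (3.23; probe sets from 0.03 to 3.23) and KIAA0895L (3.26; probe sets from -0.11 to 3.26) were also higher at E18. UNC93A was at 10.40, 10.12 and 10.47 on E18 replicates 2 to 4 but at 5.46 on replicate 1, just above the D3 arrays at 5.01 to 5.28. Its ratio was 3.95 with replicate 1 and 5.17 without it, and its probe sets ranged from 0.49 to 4.14.

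On the chick side, the list runs from THRSP to FABP1 and includes the lipid synthesis enzymes NSDHL, FASN, SCD, ELOVL5 and FADS2. AvBD8, an avian beta-defensin, belongs to none of these groups and was at 5.78, 7.76, 9.02 and 4.93 on the E18 arrays and 12.79, 12.75, 12.44 and 12.18 on the D3 arrays. The embryos were spread over a wide range and all lay below the chicks, with a ratio of -5.67 (SE 0.54, adjusted p = 4.7e-08). Its means went from 6.87 at E18 through 8.59 at E20 to 11.29 at D1. ACSBG2, an acyl-CoA synthetase, was at 7.03, 7.23, 7.22 and 7.24 and at 12.68, 11.92, 11.82 and 11.79, a ratio of -4.87 (adjusted p = 6.7e-16). It was still at 7.66 at D1, so nearly all of its difference lay between D1 and D3.

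**Figure D2:**
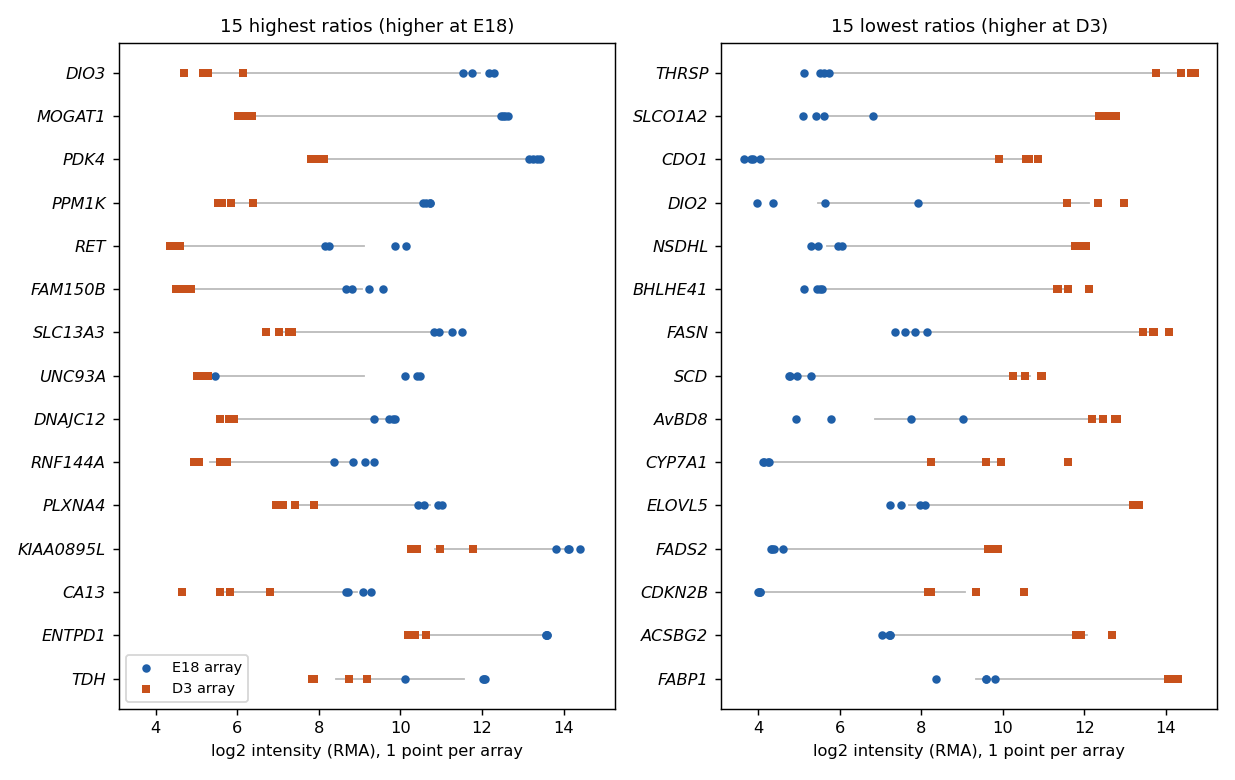
Log2 intensity on each of the 4 E18 arrays (blue circles) and 4 D3 arrays (orange squares) for the 15 genes with the highest and the 15 with the lowest E18 minus D3 ratio. UNC93A on E18 replicate 1, at 5.46, lies next to the D3 arrays, and DIO2 and AvBD8 are the genes whose embryos spread most on the right.

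Across the 42 lists of liver functions that were counted, 954 distinct genes were measured, of which 135 were higher at E18 and 245 were higher at D3. The share called on either side ranged from none of 59 cytosolic ribosomal proteins to 33 of 38 mitosis genes. Counts of the lists described are to be read against the 6.03% and 11.0% of all named genes and their median ratio of 0.03. Among lists not described further, Kruppel-like factors had 2 of 12 members higher at E18 and 5 at D3, nuclear receptors 5 of 33 and 3, liver transcription factors 1 of 13 and 1, and heme and iron genes 4 of 17 and 5.

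**Figure D3:**
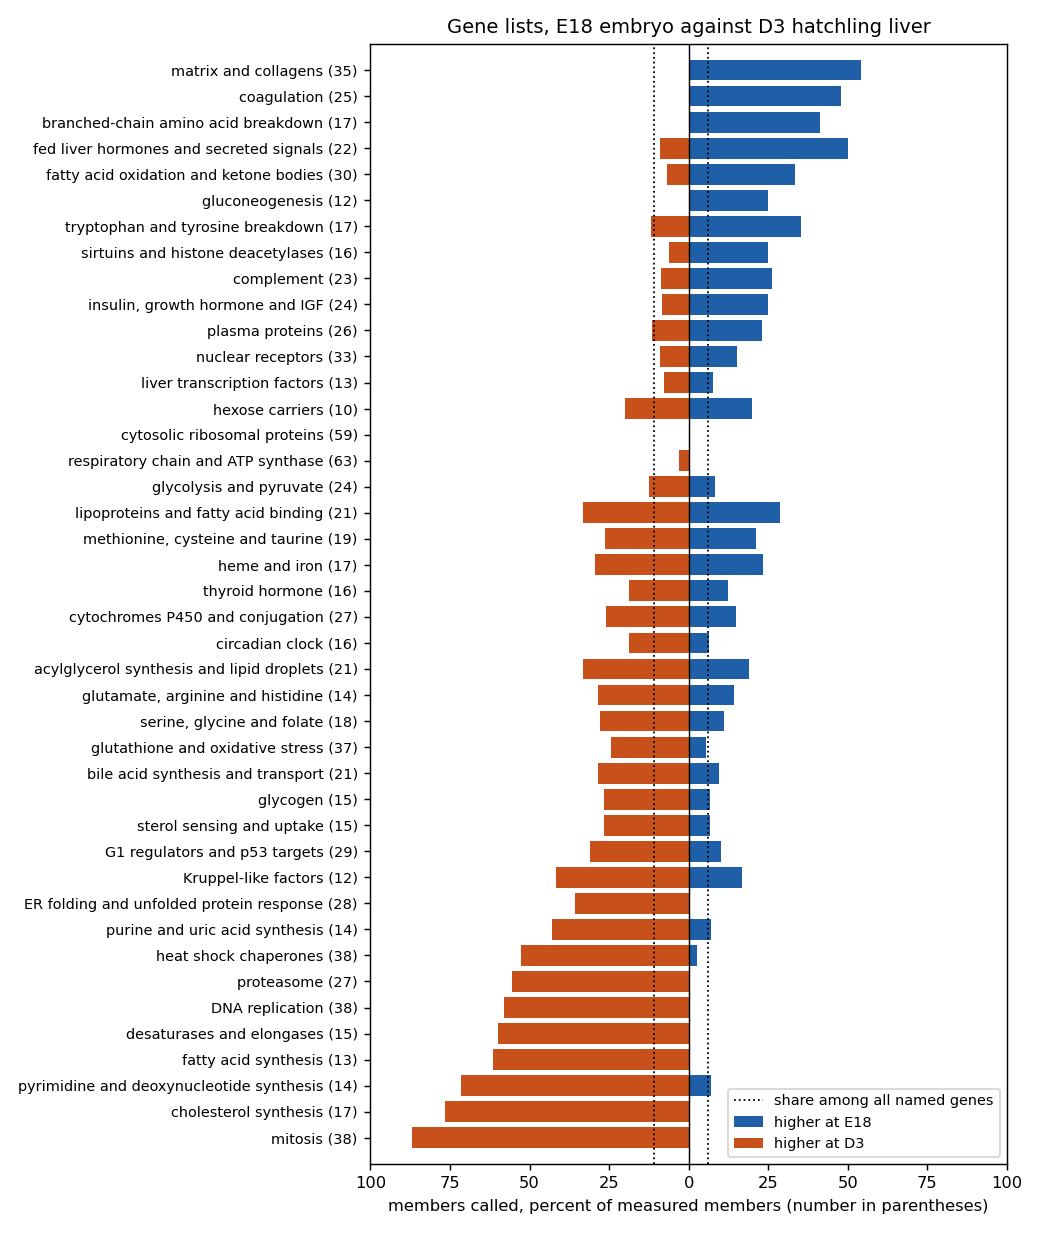
Percent of the measured members of each gene list called higher at E18 (blue, to the right) and higher at D3 (orange, to the left), with lists ordered by the difference between the shares and dotted lines at the 6.03% and 11.0% of all named genes. Mitosis (33 of 38) and cholesterol synthesis (13 of 17) reach farthest to the left, and matrix and collagens (19 of 35) and secreted signals (11 of 22) farthest to the right.

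Thyroid hormone is activated and inactivated by deiodinases, and the 2 deiodinases that moved went in opposite directions. DIO3, which inactivates the hormone, was at 11.53, 11.76, 12.18 and 12.30 in the E18 embryos and at 4.70, 6.13, 5.15 and 5.30 in the D3 chicks. Every embryo lay far above every chick, at a log2 ratio of 6.62 (SE 0.51, adjusted p = 1.8e-09), the highest of all named genes, and the level had come down to 8.14 ± 1.21 at E20 and 7.13 ± 1.12 at D1. DIO2, which makes the active hormone triiodothyronine from thyroxine, was at 5.63, 7.92, 4.36 and 3.98 at E18 and at 12.33, 11.58, 11.58 and 12.96 at D3. The embryos ranged from background to a middle level and none reached the chicks. The highest of them, at 7.92, was E18 replicate 2. With it the ratio was -6.64 (SE 0.67, adjusted p = 1.1e-07, probe sets from -6.64 to -2.34, all called). DIO2 was already at 11.09 at E20, and neither E20 vs. D1 (0.18) nor D1 vs. D3 (-1.20) was called afterwards.

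DIO1, which can both activate and inactivate the hormone, was at 11.66 ± 0.19 at E18 and 11.67 ± 0.05 at D3, a ratio of -0.01 (SE 0.10). The receptors THRA (5.38 ± 0.28 and 5.31 ± 0.17) and THRB (4.61 ± 0.12 and 4.68 ± 0.07) had ratios of 0.07 and -0.08 and were not called. KLF9, a transcription factor known as a direct target of the hormone, was at 5.41, 5.41, 5.42 and 4.81 and at 8.99, 8.65, 8.21 and 8.32. Its ratio was -3.28 (adjusted p = 2.2e-09), and it was at 8.79 at E20, already past its D3 mean of 8.54. Of the 16 measured genes of thyroid hormone supply and action, 2 were higher at E18 and 3 at D3, and the second on the E18 side was lost without E18 replicate 2.

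**Figure D4:**
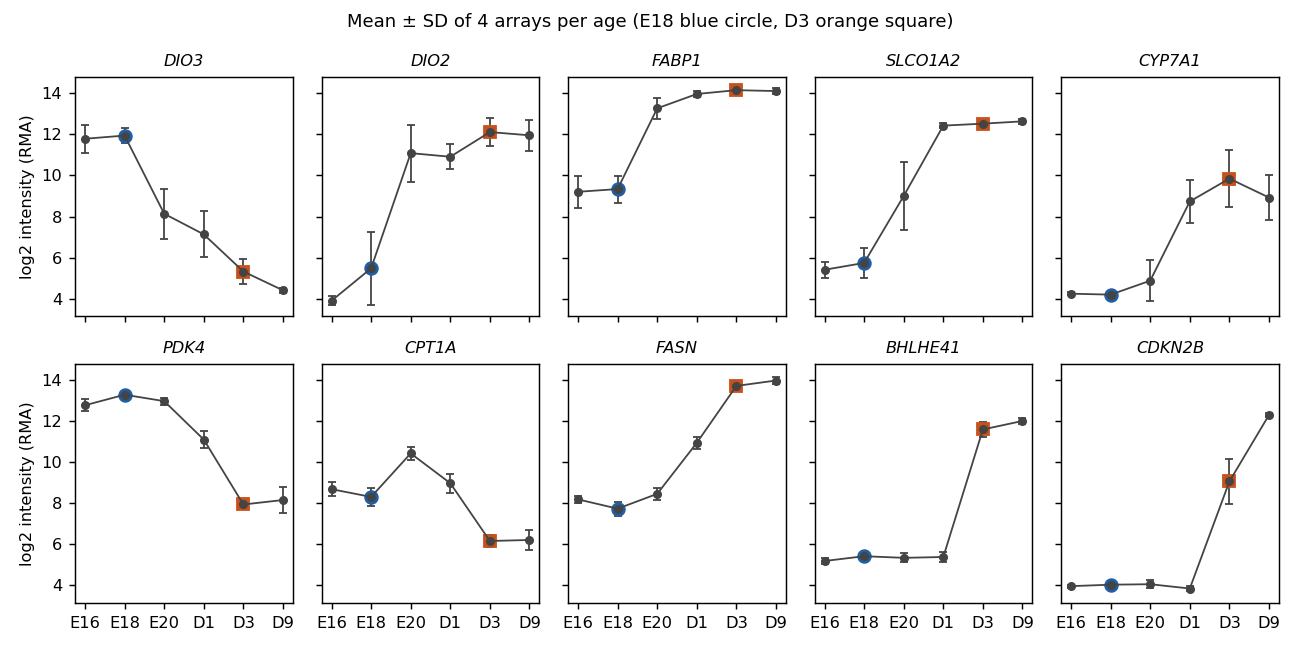
Mean ± SD of 4 arrays at each age for 10 genes of the comparison (log2 intensity, vertical axis, against age), with E18 as a blue circle and D3 as an orange square. DIO2 and FABP1 have come most of the way to their D3 level by E20, SLCO1A2 by D1, FASN rises after E20, and BHLHE41 and CDKN2B change only after D1, BHLHE41 from 5.38 at D1 to 11.60 at D3.

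THRSP, a thyroid-responsive protein of lipogenic tissue, had the widest difference of any named gene. It was at 5.61, 5.73, 5.52 and 5.13 in the embryos and at 14.71, 14.36, 13.77 and 14.61 in the fed chicks, a log2 ratio of -8.86 (SE 0.36, adjusted p = 3.0e-14). Unlike DIO2 it was still at 5.23 at E20, reached 8.33 in unfed D1 chicks and completed most of the difference, 6.03, after D1. The enzymes that build fatty acids from citrate moved the same way. FASN, the fatty acid synthase, was at 7.35, 7.60, 7.84 and 8.15 and at 14.06, 13.68, 13.69 and 13.43 (ratio -5.98, SE 0.17, adjusted p = 1.1e-16). ACACA, which makes its substrate malonyl-CoA, was at 7.08, 7.53, 6.93 and 7.09 and at 11.57, 12.11, 11.20 and 10.64, with a ratio of -4.22 (adjusted p = 2.2e-11; probe sets from -4.22 to 0.01). ACLY, which splits citrate to acetyl-CoA, had a ratio of -3.90 (adjusted p = 1.9e-15) and ME1, a source of NADPH, one of -4.11 (adjusted p = 1.4e-14). On no array did embryos and chicks overlap for either, with ACLY at 9.64 to 9.92 and 13.43 to 13.98 and ME1 at 8.94 to 9.72 and 13.05 to 13.75.

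Of 13 fatty acid synthesis genes, 8 were higher at D3 and none at E18, with a median ratio of -1.25. The lipase PNPLA3 was among them at -3.64 (adjusted p = 2.3e-12). The list's called members stood at a median of 0.2% of their way at E20 and 31.8% at D1. Of the transcription factors on this list, SREBF1 and NR1H3 were not called. SREBF1 was at 6.24, 5.77, 6.28 and 6.30 and at 6.55, 6.43, 6.47 and 6.72, a ratio of -0.39 (adjusted p = 0.021) that stayed under the limit on the ratio. NR1H3, the liver X receptor alpha, had a ratio of -0.43 with overlapping arrays. PPARG, the adipogenic receptor, was called at -1.25 (adjusted p = 3.0e-06; probe sets from -1.25 to -0.58) from a level near background at E18 (4.00 ± 0.13).

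Desaturases and elongases, which turn palmitate and dietary fatty acids into longer and less saturated ones, followed. SCD, the stearoyl-CoA desaturase, was at 5.31, 4.79, 4.76 and 4.97 and at 10.54, 10.93, 10.95 and 10.24, with a ratio of -5.71 (SE 0.15, adjusted p = 3.5e-17). FADS2, the delta-6 desaturase, was at 4.31, 4.40, 4.34 and 4.62 at E18, near background, and at 9.74, 9.63, 9.89 and 9.82 at D3, a ratio of -5.35 as a lower bound of its size (probe sets from -5.35 to 0.17), and FADS1 had a ratio of -3.77. These desaturases were flat from E18 to D1 (SCD 4.96, 4.87 and 5.09; FADS1 6.17, 6.18 and 6.21; FADS2 4.42, 4.31 and 4.42) and were called only in D1 vs. D3. At signals as low as those of SCD and FADS2 a change may not be visible. FADS6, another member of the family, was at 9.78, 9.90, 10.36 and 9.66 and at 9.34, 9.03, 9.32 and 9.19, a ratio of 0.71 (adjusted p = 0.038) that was under the limit, with no overlap, and that was called under cyclic loess (0.88). The elongases did not share this course. ELOVL5 was at 7.24, 7.51, 7.98 and 8.09 at E18 and 13.25, 13.35, 13.23 and 13.20 at D3 (ratio -5.55, adjusted p = 3.5e-12) and was called in each of the 3 steps, reaching 11.90 in the unfed chick. ELOVL2 (-4.49) had gone from 4.64 to 6.47 by D1, and ELOVL6 (-3.89) from 8.68 to 9.56. In all, 9 of 15 members were higher at D3 and none at E18, with a median of -1.18.

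Cholesterol synthesis was the list with the largest median ratio, -3.34, and 13 of its 17 members were higher at D3 and none at E18. NSDHL, which removes methyl groups from the sterol ring, was at 5.30, 5.47, 5.96 and 6.06 in embryos and 11.93, 11.78, 11.98 and 12.04 in chicks. The groups were more than 5 log2 units apart, with a ratio of -6.24 (SE 0.19, adjusted p = 1.7e-16). SQLE, which commits squalene to sterols, was at 5.02, 5.0, 5.14 and 5.35 and at 10.24, 9.49, 10.59 and 9.36 (ratio -4.79, adjusted p = 2.3e-14; probe sets from -6.70 to -4.79, all called). LSS (-4.47), DHCR7 (-4.40; probe sets from -4.40 to -0.21), FDPS (-4.0) and FDFT1 (-3.07) belonged to the same group. Of the list, 11 members were called in D1 vs. D3 and 2 in each earlier step, and the called members stood at a median of 15.3% of their way in unfed D1 chicks.

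HMGCS1, the cytosolic synthase at the head of the pathway, was the exception in time. It was at 6.54, 6.60, 7.36 and 7.17 at E18 and at 11.89, 11.11, 11.66 and 11.40 at D3 (ratio -4.60, adjusted p = 2.9e-08), and it had already come to 10.70 at E20 and 11.37 at D1, with E18 vs. E20 as its only called step (-3.78). MSMO1, the methylsterol oxygenase, also moved before hatch, from 8.68 to 9.95 (-1.28), but then only from D1 (9.25) to D3 (13.27). MVK, the mevalonate kinase, had a ratio of -0.46 (adjusted p = 3.3e-03) and was not called.

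Of 15 genes of sterol sensing and uptake, 4 were higher at D3 and 1 at E18. STARD4, a sterol carrier, was at 6.25, 6.49, 6.59 and 6.90 and at 11.47, 11.16, 11.39 and 11.14 (ratio -4.73, adjusted p = 7.7e-12). SREBF2, the transcription factor of the pathway, was at 7.41, 7.49, 7.30 and 6.76 and at 9.99, 9.51, 9.40 and 10.11, a ratio of -2.51 (adjusted p = 2.5e-07) reached mostly after D1 (7.53). INSIG1, which retains that factor in the endoplasmic reticulum when sterols are plentiful, was at 12.40, 11.91, 12.08 and 12.11 and at 12.71, 12.68, 13.01 and 12.56. Its ratio of -0.62 (adjusted p = 0.027) was not called, but the level went down between the 2 ages, to 10.07 at E20 (2.06), and up again through 10.97 at D1. By its probe set of largest variance INSIG1 was called at -1.32. LRP1, a receptor for lipoprotein remnants, was higher at E18 (1.65, adjusted p = 3.6e-05).

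Acylglycerol genes were called in both directions. MOGAT1, which makes diacylglycerol from monoacylglycerol, was at 12.46, 12.52, 12.64 and 12.57 in embryos and 6.21, 6.07, 6.35 and 6.03 in chicks, with a log2 ratio of 6.38 (SE 0.36, adjusted p = 1.2e-11; probe sets from 0.45 to 6.38). It kept 11.44 at E20 and was at 8.10 at D1. On the route from glycerol phosphate, some isoenzymes of the same step were called in opposite directions. Others, GPAT3 (0.53), AGPAT1 (0.20) and AGPAT4 (-0.13), were not called. GPAM, an acyltransferase of the first step, was at 7.06, 6.69, 7.57 and 7.46 and at 10.15, 9.88, 9.37 and 10.02 (-2.66, adjusted p = 2.6e-10). GPAT4, which catalyses the same step, was at 7.79, 8.20, 8.33 and 8.34 and at 7.11, 7.04, 7.35 and 7.14, higher in the embryo (1.00, adjusted p = 5.3e-06; probe sets from 0.05 to 1.14). AGPAT2, of the next step, had a ratio of -3.34 (adjusted p = 7.0e-11). AGPAT3, a second acyltransferase of that step, was higher in the embryo at 1.63 (adjusted p = 9.6e-09). The phosphatases LPIN1 (-2.22, adjusted p = 2.7e-03) and LPIN2 (1.21, adjusted p = 3.5e-04; probe sets from 0.13 to 1.21) were called in opposite directions as well. GPAT4 was added after its values were seen, and neither it nor LPIN2 was called with the mean of the probe sets (0.64 and 0.57). GPAT4, LPIN1 and LPIN2 were not called in a test against the ratio limit itself. DGAT2, which adds the last acyl chain, was not called (0.23).

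PLIN2, which coats lipid droplets, was at 9.87, 9.84, 9.87 and 9.62 and at 13.30, 13.05, 13.08 and 13.01 (ratio -3.31, adjusted p = 8.4e-14). It stood at 9.84 in unfed D1 chicks, so nearly the whole difference fell between D1 and D3. In all 4 members of 21 were higher at E18 and 7 at D3, and the median was -0.004.

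The carriers of fatty acids and lipoproteins formed another mixed list, with 6 of 21 higher at E18 and 7 at D3. FABP1, the liver fatty acid-binding protein, was at 8.36, 9.6, 9.59 and 9.80 and at 14.30, 14.05, 14.13 and 14.14, a ratio of -4.82 (SE 0.31, adjusted p = 9.6e-11). Its change preceded hatch, with 13.27 at E20 and no later step called. FABP7, at -3.55 (adjusted p = 1.7e-08), and the apolipoprotein APOA4, at -2.59 (adjusted p = 1.2e-07), also moved in E18 vs. E20, by -1.66 and -2.06. The endothelial lipase LIPG (-2.38), the inhibitor ANGPTL4 (-1.24, adjusted p = 6.2e-03) and the transfer protein MTTP (-1.14, adjusted p = 2.0e-06), which loads lipid onto apolipoprotein B, were higher at D3 too.

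On the embryo side, the hepatic lipase LIPC was at 12.06, 12.08, 12.57 and 12.95 and at 9.37, 9.68, 9.85 and 10.17 (ratio 2.64, adjusted p = 6.9e-11). Lipoprotein lipase LPL (1.18, adjusted p = 2.4e-04), the cholesteryl ester transfer protein CETP (1.58; probe sets from 0.27 to 1.76) and FABP5 (1.31; probe sets from 0.29 to 1.31) were higher there as well. LPL and LIPC had higher means still at E20, at 10.39 and 12.91, before the fall, but the rise of LIPC was under the limit on the ratio. APOB, the protein of very low density lipoprotein, had a ratio of 0.22 and was not called, but its probe sets ranged from 0.22 to 1.40 and that of largest variance was called at 1.17.

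Fatty acid oxidation leaned to the embryo, with 10 of 30 members higher at E18 and 2 at D3 and a median of 0.45. PDK4, a kinase that shuts pyruvate out of the mitochondrial citrate cycle, was at 13.42, 13.16, 13.24 and 13.34 in embryos and 8.14, 7.85, 7.80 and 7.98 in chicks. The ratio was 5.35 (SE 0.22, adjusted p = 4.5e-14), and the level was 12.98 at E20 and 11.10 in unfed D1 chicks. The regulators of the pathway were among the called members. PPARA, the receptor that drives fatty acid catabolism, was at 10.64, 9.76, 10.26 and 10.16 and at 8.20, 7.86, 8.57 and 8.40 (ratio 1.95, adjusted p = 3.0e-08). Its coactivator PPARGC1A was at 9.85, 8.75, 9.18 and 9.57 and at 6.95, 6.86, 6.41 and 7.70 (ratio 2.36, adjusted p = 3.6e-08). They differed in time, since PPARA came down before hatch, to 8.88 at E20, and PPARGC1A only between D1 (9.37) and D3.

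CPT1A, which lets fatty acids into the mitochondrion, was at 8.12, 7.76, 8.59 and 8.76 and at 5.79, 6.26, 6.50 and 6.09, with a ratio of 2.15 (adjusted p = 1.6e-06; probe sets from 0.30 to 2.15). The simple comparison hides its peak, since the level first rose to 10.43 at E20 (-2.12) and then fell in both later steps (1.45 and 2.82). Enzymes downstream followed at lower ratios, with HADHB of the trifunctional protein at a ratio of 1.25 (adjusted p = 1.8e-07), the electron transfer oxidoreductase ETFDH at 11.85 ± 0.04 against 10.37 ± 0.19 (adjusted p = 1.2e-09) and the peroxisomal carnitine transferase CROT at a ratio of 1.70 (adjusted p = 2.0e-12). CPT2 (0.41) and ACADL (0.34) were not called. ACSL5, an acyl-CoA synthetase, was higher at D3 (-1.88, adjusted p = 5.5e-07), as was 1 other member. The respiratory chain and ATP synthase, in contrast, had none of 63 members higher at E18 and 2 higher at D3, with a median of 0.04.

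Genes of glucose metabolism were counted list by list. Of 12 gluconeogenic genes 3 were higher at E18 and none at D3, led by G6PC2 at 7.97, 7.82, 8.06 and 8.13 against 6.44, 6.15, 5.83 and 5.87 (ratio 1.92, adjusted p = 7.0e-08). G6PC (0.12) and FBP1 (0.27, adjusted p = 7.5e-04), the phosphatases of liver gluconeogenesis, were not called. PCK1, its cytosolic carboxykinase, was at 8.20, 4.93, 7.78 and 8.0 and at 7.03, 7.44, 6.78 and 7.88, so that E18 replicate 2 stood apart by almost 3 log2 units. Its ratio was -0.05 with that array and 0.71 (adjusted p = 0.400) without it. At the ages in between PCK1 was at 9.11 at E20 and at 5.74 at D1.

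Of 24 glycolytic genes 2 were higher at E18 (8.33%) and 3 at D3 (12.5%), close to the 6.03% and 11.0% of all named genes. HKDC1, a hexokinase, was at 5.39, 5.01, 5.08 and 5.0 in embryos and at 10.66, 9.59, 6.60 and 8.03 in chicks. The chicks differed by 4 log2 units among themselves, but all exceeded the embryos, with a ratio of -3.60 (SE 0.49, adjusted p = 5.6e-06; probe sets from -3.60 to -1.62, all called). PFKL, the liver phosphofructokinase, was higher at D3 (-1.73, adjusted p = 2.2e-06). PFKFB1, the bifunctional enzyme that sets its activator, was called at 1.69, but its 5 probe sets ran from -0.96 to 1.69 and its direction depends on which is taken. Among 15 glycogen genes 4 were higher at D3 and 1 at E18, with UGP2, which makes the glucose donor, at -1.79 (adjusted p = 2.8e-10; probe sets from -1.79 to -0.22) and the branching enzyme GBE1 at -1.36 (probe sets from -1.36 to -0.21). The synthase GYS2 (0.36) and the phosphorylase PYGL (-0.34) were not called. Of 10 hexose carriers 2 were higher at E18, 1 without E18 replicate 2, and 2 at D3. SLC2A5, a fructose carrier, was higher at E18 (1.74, adjusted p = 1.7e-03; probe sets from 0.07 to 1.74) and lost its level before hatch, to 8.18 at E20.

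Bile acid genes changed across hatch more than after it. SLCO1A2, a carrier that takes up bile acids and other organic anions, was at 5.09, 5.61, 6.82 and 5.43 in embryos and 12.36, 12.59, 12.38 and 12.77 in chicks, a ratio of -6.79 (SE 0.49, adjusted p = 7.2e-10). It had reached 9.00 at E20 and 12.43 in the unfed chick. CYP7A1, the rate-limiting enzyme of bile acid synthesis, was near background in every embryo, at 4.14, 4.24, 4.11 and 4.28, and at 9.59, 9.96, 11.59 and 8.25 in chicks, a ratio of -5.65 as a bound (adjusted p = 2.0e-07). SLC51A (-4.52, adjusted p = 1.9e-10) and SLC51B (-3.94, adjusted p = 3.0e-09), the subunits of an exporter of bile acids, and CYP8B1 (-2.27), which sets the ratio of bile acid species, had been called in E20 vs. D1 like CYP7A1.

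Of 21 members 6 were higher at D3 and 2 at E18. In E18 vs. E20, 2 were higher at E18 and 4 at E20. In E20 vs. D1, 1 was higher at E20 and 9 at D1, and in D1 vs. D3, 3 were higher at D1 and none at D3. The export pump ABCB11 was called at -0.85 (adjusted p = 5.1e-03), a call that is lost under cyclic loess normalization (-0.69) and without D3 replicate 4 (-0.74). NR1H4, the bile acid receptor, ran against this group, at 10.99, 11.22, 10.62 and 10.95 in embryos and 8.55, 8.71, 8.84 and 9.35 in chicks (ratio 2.08, adjusted p = 1.7e-07; probe sets from 0.36 to 2.08). Its target NR0B2 was not called (-0.08).

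Lists of amino acid metabolism differed in how their called members were divided between the ages. Branched-chain amino acids were on the embryo side, with 7 of 17 members higher at E18 and none at D3 and a median of 0.57. PPM1K, the phosphatase that activates the branched-chain ketoacid dehydrogenase, was at 10.63, 10.56, 10.72 and 10.71 and at 5.62, 5.85, 5.54 and 6.39, a ratio of 4.81 (SE 0.30, adjusted p = 5.5e-11; probe sets from 0.34 to 5.32). A subunit of the dehydrogenase itself, BCKDHB (1.79, adjusted p = 5.5e-09), and MCCC2 (1.79; probe sets from 0.15 to 1.79), of leucine breakdown, were lower by D3 as well. TDH, which oxidizes threonine, was at 12.05, 10.11, 12.03 and 12.08 and at 8.74, 7.89, 9.18 and 7.84 (3.15, adjusted p = 1.0e-06, and 3.64 without E18 replicate 2).

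Tryptophan and tyrosine breakdown had 6 of 17 members higher at E18 and 2 at D3. DNAJC12, a co-chaperone of enzymes that hydroxylate phenylalanine, tyrosine and tryptophan, was at 9.73, 9.35, 9.81 and 9.86 and at 5.89, 5.81, 5.58 and 5.93 (ratio 3.89, adjusted p = 4.7e-11), unchanged at E20 (9.71) and lower from D1 (6.92). The oxygenases TDO2 (1.13, adjusted p = 1.8e-05) and KMO (1.70, adjusted p = 1.5e-08) of the kynurenine pathway went the same way. AFMID, the formamidase of that pathway, did the reverse, at 5.94, 6.09, 6.21 and 6.52 and at 11.13, 11.07, 10.61 and 10.88 (ratio -4.73, adjusted p = 5.2e-14), most of it between E20 (6.89) and D1 (10.28).

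In sulfur amino acid metabolism the steps that make and consume cysteine moved apart. CTH, which makes cysteine from cystathionine, was at 12.54, 12.49, 12.80 and 12.62 and at 10.79, 10.99, 11.25 and 10.61 (ratio 1.70, adjusted p = 1.1e-08; probe sets from 0.28 to 1.70). CDO1, which oxidizes cysteine toward taurine, was near background in embryos, at 3.84, 4.05, 3.87 and 3.65, and at 9.90, 10.58, 10.86 and 10.63 in chicks, a ratio of -6.64 as a lower bound of its size (adjusted p = 2.2e-11). It was still at 5.40 in unfed chicks. Of that list 4 of 19 were higher at E18 and 5 at D3. SARDH, a glycine-forming dehydrogenase, was on the embryo side (1.92; probe sets from 0.10 to 1.92), while serine, glycine and folate genes had 2 of 18 higher at E18 and 5 at D3. GLDC, which breaks glycine down, was on the chick side at -3.24 (adjusted p = 4.4e-07), reached at D1 (11.79).

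Nitrogen disposal in birds ends in uric acid, which is made from purines. XDH, the enzyme that forms uric acid, was at 5.99, 5.56, 6.04 and 5.91 in embryos and 9.35, 9.44, 9.75 and 9.33 in chicks. Its ratio was -3.59 (SE 0.26, adjusted p = 6.9e-10, probe sets from -3.59 to -0.01), and it stood at 9.15 in unfed chicks. PPAT, the first enzyme of purine synthesis, had a ratio of -1.91 (adjusted p = 1.9e-07) and PAICS, a later one, of -1.90 (adjusted p = 5.4e-08; probe sets from -1.90 to 0.48), both by D1. IMPDH2, on the way to guanine nucleotides, was at -1.31, while ADSL was higher at E18 (0.90, adjusted p = 1.2e-03, and 0.70, no longer called, without D3 replicate 4). In all 6 of 14 members were higher at D3 and 1 at E18, although the list's median was only -0.07. Of 14 genes of glutamate, arginine and histidine 2 were higher at E18 and 4 at D3. GLUL, which fixes ammonia in glutamine, was higher at D3 (-1.89, adjusted p = 1.2e-05), as was ASS1 of arginine synthesis (-2.05, adjusted p = 1.3e-08).

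Mitosis had the highest share of called members of the 42 lists. Of 38 mitosis genes 33 were higher at D3 and none at E18, with a median ratio of -1.51. SGO1, which protects sister chromatids, was at 5.97, 6.29, 6.87 and 6.34 and at 8.75, 9.06, 8.64 and 9.17 (ratio -2.54, adjusted p = 6.4e-08). AURKB, a kinase of chromosome segregation, was at 7.85, 8.21, 8.12 and 8.13 and at 10.38, 10.23, 9.87 and 10.07 (-2.06, adjusted p = 7.4e-07), and CDK1, the kinase that starts mitosis, at 9.83, 9.94, 10.09 and 9.75 and at 11.52, 11.71, 11.32 and 11.61 (-1.64, adjusted p = 9.3e-07). NUSAP1 (-2.16) and TOP2A (-1.61) gave similar values with no overlap between arrays.

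The path from E18 to D3 was not monotonic for this list. Relative to E18, the median of its members was 0.85 lower at E20, 1.34 higher at D1, 1.51 higher at D3 and back within 0.01 at D9, and at E16 it was 1.03 higher. Between E18 and E20, 23 of the 38 were higher at E18, between E20 and D1, 33 were higher at D1, and between D1 and D3 only 1 was called. The E18 to D3 difference thus runs from a low level to the highest median of the 6 ages.

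DNA replication (22 of 38 higher at D3, none at E18, median -1.03) and pyrimidine and deoxynucleotide synthesis (10 of 14 and 1, median -1.17) moved with mitosis after hatch, and their medians at E20 lay at -0.01 and -0.14 from E18, against -0.85 for mitosis. RRM2, the subunit of ribonucleotide reductase made in dividing cells, was at 7.56, 7.93, 8.25 and 8.47 and at 12.08, 11.58, 11.74 and 11.74 (-3.73, adjusted p = 3.6e-10). Thymidine kinase TK1 (-2.92, adjusted p = 4.0e-11), the origin factor CDC45 (-2.40, adjusted p = 4.4e-07), the helicase subunit MCM5 (-1.99, adjusted p = 3.5e-11) and the sliding clamp PCNA (-1.57, adjusted p = 7.0e-07) followed, all with no overlap.

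Regulators of entry into the cycle were mixed. CDKN2B, an inhibitor of the G1 kinases, was near background at 4.03, 4.04, 4.05 and 4.00 in embryos and at 9.34, 10.51, 8.24 and 8.16 in chicks, a ratio of -5.03 as a bound (adjusted p = 3.2e-11). It was at 3.84 in unfed chicks and at 12.30 at D9. RB1, which restrains entry into S phase, was at -2.43 (adjusted p = 3.5e-10; probe sets from -2.43 to 0.20) and called in E20 vs. D1 and in D1 vs. D3. Transcription factors of the MYC family took opposite sides, with MYC at 5.93, 6.77, 7.50 and 7.25 against 8.75, 8.79, 8.68 and 8.76 (-1.88, adjusted p = 2.0e-06) and MYCN at 7.28, 6.13, 6.28 and 5.62 against 4.42, 4.38, 4.29 and 4.03, near background, higher at E18 by at least 2.05 (adjusted p = 6.4e-06; probe sets from 0.58 to 2.05). MYC was highest at E20, at 9.57. CDKN1A, a p53 target, was not called (-0.23). Of these 29 regulators 3 were higher at E18 and 9 at D3.

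**Figure D5:**
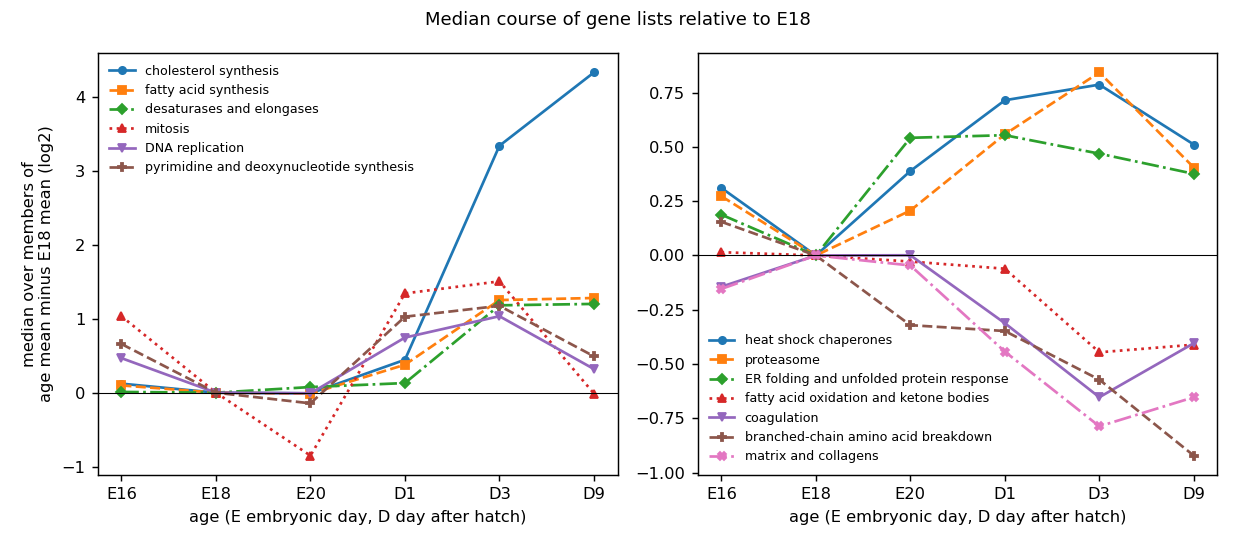
Median over the members of each list of the age mean minus the E18 mean (log2, vertical axis) at the 6 ages. Mitosis dips to -0.85 at E20 and peaks at 1.51 at D3, cholesterol synthesis changes chiefly between D1 (0.45) and D3 (3.34), and matrix and collagens go down to -0.79 at D3.

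Protein folding and turnover were higher in the chick. Heat shock chaperones had 20 of 38 members higher at D3 and 1 at E18, with a median of -0.79. HSPH1 was at 3.73, 5.31, 4.73 and 4.46 and at 7.50, 7.50, 7.44 and 7.42 (-2.91, adjusted p = 7.5e-09; probe sets from -2.91 to -0.03), and the constitutive HSPA8 at 11.24, 11.89, 11.33 and 11.87 and at 13.54, 13.65, 13.50 and 13.35 (-1.93, adjusted p = 2.7e-09). HSP90AB1 (-2.11), HSP90AA1 (-1.92) and CCT2 (-1.61), of the ring chaperonin, were higher at D3 too. BAG3, a co-chaperone of selective autophagy, was the member on the other side, at 10.80, 10.24, 8.83 and 9.32 against 7.57, 7.62, 7.17 and 7.04 (2.45, adjusted p = 2.3e-05).

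In the endoplasmic reticulum, 10 of 28 folding genes were higher at D3 and none at E18. HSPA5 was at 11.33, 12.39, 11.07 and 11.96 and at 12.85, 12.82, 12.73 and 13.07 (-1.18, adjusted p = 1.2e-04), and its cofactor DNAJB11 had a ratio of -1.97 (adjusted p = 1.6e-07). This list had changed before hatch, with 11 members higher at E20 than at E18 and its called members at a median of 85.7% of their way by then. The proteasome had 15 of 27 members higher at D3 and none at E18, led by PSMD3 at -1.25 (adjusted p = 3.4e-06), with a median of -0.84 but no member called in any single step. Cytosolic ribosomal proteins had no member called in either direction among 59 (median -0.15).

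Plasma proteins, the main export of the liver, were mixed. Albumin (ALB) was at 15.21 ± 0.02 and 15.20 ± 0.02, where the highest value on any array was 15.24, and AHSG (0.13), FGB (0.10) and alpha-fetoprotein AFP (0.41) were not called. HPX, which clears heme from plasma, was at 8.11, 11.13, 8.59 and 8.55 in embryos and 13.64, 13.65, 14.02 and 13.16 in chicks. E18 replicate 2 lay above the other embryos but below every chick, and the ratio was -4.52 (adjusted p = 5.4e-08), or -5.20 without it. The change was complete for the greater part at E20 (12.48). CP, the copper ferroxidase ceruloplasmin, was at 6.68, 6.91, 6.82 and 6.72 and at 9.45, 9.79, 9.77 and 8.92 (-2.70, adjusted p = 1.1e-07; probe sets from -2.70 to 0.45), nearly all of it after D1 (6.91). Of 26 plasma proteins 6 were higher at E18 and 3 at D3.

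Coagulation genes were on the embryo side, with 12 of 25 higher at E18 and none at D3 and a median of 0.65. The called members include inhibitors of clotting, such as PROC and TFPI, and VWF, which is also counted with the endothelial markers. The fibrinogen chains FGB (0.10) and FGG (0.13) and factor X (F10, -0.19) were not called. Prothrombin F2 was at 13.60, 13.50, 13.20 and 13.43 and at 11.97, 12.14, 12.10 and 12.16 (1.34, adjusted p = 5.5e-10). PROZ, a vitamin K-dependent cofactor, was at 1.90 (adjusted p = 5.6e-07) and factor VII (F7) at 0.87 (adjusted p = 2.3e-07). TFPI, the inhibitor of the tissue factor pathway, had a ratio of 2.89 (adjusted p = 6.3e-03), but its E18 arrays at 5.66, 9.25, 8.91 and 8.87 overlapped the D3 arrays at 6.42, 6.41, 4.05 and 4.24, since E18 replicate 1 was low (3.73 without it; probe sets from 0.70 to 2.89). Complement had 6 of 23 higher at E18 and 2 at D3. The lectin pathway was represented by MBL2 at 13.23 ± 0.26 against 11.75 ± 0.30 (adjusted p = 3.0e-07) and its protease MASP2 at a ratio of 2.01 (adjusted p = 2.3e-08; probe sets from 0.27 to 2.01), and C4A went the other way at -2.55 (adjusted p = 3.7e-04; probe sets from -2.55 to 0.09).

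Growth signals gave 6 of 24 genes of insulin, growth hormone and IGF higher at E18 and 2 at D3. IGFBP2, which binds IGF in plasma, was at 10.39, 10.61, 10.75 and 10.14 and at 7.57, 7.72, 7.56 and 7.28 (2.94, adjusted p = 1.3e-09), with its peak at E20 (11.22) and its fall after D1 (10.27). IGFBP1 was at 11.56, 10.38, 11.70 and 11.94 against 9.64 to 9.81 (1.64, adjusted p = 6.0e-05). The growth hormone receptor GHR was at 12.08, 11.64, 11.94 and 11.69 and at 10.23, 10.18, 10.59 and 10.16 (1.55, adjusted p = 4.3e-08; probe sets from 0.40 to 1.55), and the insulin receptor INSR at 0.91 (adjusted p = 3.9e-05; probe sets from 0.54 to 0.91). IGF1 itself was near background at both ages (4.22 and 4.22), so no ratio is read from it. Among 22 secreted signals and their receptors 11 were higher at E18, RET and IGFBP2 among them, and 2 at D3. LECT2, a secreted protein of liver and leukocytes, was at 11.19, 10.15, 9.77 and 10.14 and at 7.09, 7.55, 8.66 and 5.47 (3.12, adjusted p = 4.0e-04).

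The extracellular matrix had 19 of 35 members higher at E18 and none at D3, with a median of 0.79. COL14A1, a collagen that binds fibrils, was at 9.95, 9.74, 10.42 and 10.09 and at 6.98, 7.09, 7.45 and 7.41 (2.82, adjusted p = 6.0e-11; probe sets from 0.23 to 2.82). LAMB1, of the basement membrane, was at 11.67, 11.77, 11.47 and 11.74 and at 9.17, 9.31, 9.24 and 8.96 (2.49, adjusted p = 5.9e-12). The chains of type I collagen, COL1A1 at 1.71 (adjusted p = 6.8e-05) and COL1A2 at 1.62 (adjusted p = 4.5e-07; probe sets from 0.06 to 1.74), and POSTN at 2.17 (adjusted p = 2.0e-05) were apart on all arrays. Collagen is made by other cells than hepatocytes, and the markers of those cells are set beside it. The 10 stellate and smooth muscle markers had array means of 7.22 to 7.44 at E18 and 6.96 to 7.20 at D3, with 2 higher at E18 and 1 at D3. The 17 endothelial markers had 7.82 to 8.02 and 7.12 to 7.49, with 6 higher at E18, 5 without E18 replicate 2, and none at D3. Among them SOX17 was at 2.10 (adjusted p = 1.4e-06; probe sets from 0.55 to 2.10), VWF at 1.19 (adjusted p = 5.1e-07; probe sets from 0.05 to 1.19) and CDH5 at 0.88 (adjusted p = 7.2e-06). With the mean of the probe sets, 3 endothelial markers were called higher at E18, and 1 in a test against the ratio limit itself. No stellate or smooth muscle marker was called higher at E18 in either setting. The part of these cells in the matrix and coagulation values was not tested.

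Granulocyte markers were higher in the embryo too, 5 of 8 at E18 and none at D3 with a median of 1.20, and their array means were 8.08 to 8.93 against 6.67 to 7.45. CATH1, a cathelicidin of heterophils, was at 11.24, 10.34, 10.03 and 9.96 and at 7.0, 7.40, 8.39 and 6.25 (3.13, adjusted p = 8.3e-05). The defensins AvBD1 (2.57, adjusted p = 6.9e-04; probe sets from 0.42 to 2.57), AvBD6 (1.57, adjusted p = 2.5e-04) and AvBD7 (2.45, adjusted p = 5.6e-03) went the same way, AvBD7 with overlapping arrays. On E18 replicate 1, CATH1, AvBD1, AvBD7 and LECT2 each had their highest E18 value, and on D3 replicate 3 each had its highest D3 value. Since LECT2 is also made by leukocytes, its value stands beside these, and their part in it was not tested. AvBD8, a defensin that is not among these markers, had the opposite sign. Of 13 macrophage markers 1 was higher at E18 and 2 at D3, of 8 erythroid markers 2 and 0, and of 16 lymphocyte markers none was called. MYL4, a light chain of embryonic and atrial muscle, was the 1 muscle marker called among 15, at 6.92, 7.22, 7.88 and 7.36 against 10.82, 10.52, 10.44 and 10.40 (-3.20, adjusted p = 4.3e-08), while the 15 had array means of 5.0 to 5.13 and 5.20 to 5.28. Probe sets of close paralogues such as the defensins or glutathione transferases may share hybridization, which was not tested.

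Defence against oxidation and foreign compounds had more genes on the chick side, 9 of 37 glutathione and antioxidant genes at D3 and 2 at E18. GCLC, the rate-limiting enzyme of glutathione synthesis, was at 6.85, 7.34, 7.39 and 6.97 and at 10.02, 9.73, 9.70 and 10.21 (-2.78, adjusted p = 1.6e-09; probe sets from -2.78 to -0.07) and was called before hatch (-0.94) and again from E20 to D1 (-1.19). The transferases GSTA4 (-3.15, adjusted p = 4.2e-10) and MGST3 (-2.97, adjusted p = 1.0e-10) followed after E20. HMOX1, which degrades heme, was higher at E18 (1.10, adjusted p = 1.8e-03). Of 27 cytochromes P450 and conjugating enzymes 4 were higher at E18 and 7 at D3. CYP1A2, which oxidizes aromatic compounds, was at 4.96, 7.24, 7.38 and 6.37 and at 10.41, 10.87, 11.26 and 11.25 (-4.46, adjusted p = 4.7e-07; probe sets from -4.46 to -0.05), and E18 was its lowest age, with 8.77 at E16 and 8.82 at E20. SULT1B1, a sulfotransferase that acts on thyroid hormones in mammals, was at 10.30, 10.82, 10.99 and 10.90 and at 7.87, 7.84, 7.86 and 8.56 (2.72, adjusted p = 2.4e-10).

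Of 16 clock genes 3 were higher at D3, 2 without E18 replicate 2, and 1 at E18. BHLHE41, a repressor of the clock and of lipogenic regulators in mammals, was at 5.53, 5.56, 5.45 and 5.14 and at 12.11, 11.60, 11.35 and 11.33 (-6.18, SE 0.16, adjusted p = 1.4e-17). It was at 5.34 at E20 and 5.38 at D1, which makes it one of the genes whose whole difference fell between D1 and D3. PER3 (-1.15, adjusted p = 1.5e-03; probe sets from -1.15 to -0.04) was not called with the mean of its probe sets (-0.38). CLOCK (-0.84, adjusted p = 5.3e-03) was near the limit on the ratio and was not called without E18 replicate 2 (-0.69). RORA was higher at E18 (1.06, adjusted p = 2.3e-03) with overlapping arrays. Time of day of sampling is not given in the sources used here. Of 16 sirtuins and histone deacetylases 4 were higher at E18 and 1 at D3, with SIRT1, a deacetylase that depends on NAD, at 7.22, 7.20, 7.49 and 7.47 and at 5.50, 6.05, 6.0 and 5.99 (1.46, adjusted p = 6.3e-06; probe sets from 0.13 to 1.46) and HDAC4 at 2.02 (adjusted p = 5.0e-07).

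The liver that goes against its label changed few of these counts. Without E18 replicate 2 the number of called members moved by 1 in 16 of the counts over lists and by 2 in the nuclear receptors on the E18 side (5 to 7), among 108 counts in all. On the E18 side, G1 regulators went from 3 to 4, complement from 6 to 7, fatty acid oxidation from 10 to 11, glycolysis from 2 to 3, insulin, growth hormone and IGF from 6 to 7 and matrix from 19 to 20, while thyroid hormone and hexose carriers went from 2 to 1 and endothelial markers from 6 to 5. On the D3 side, heat shock chaperones went from 20 to 21 and sterol sensing from 4 to 5, while clock genes went from 3 to 2, mitosis from 33 to 32, pyrimidine synthesis from 10 to 9, and heme and iron as well as sulfur amino acids from 5 to 4. Of the 159 named genes that were called only CLOCK lost its call. Without E18 replicate 1 instead, some counts moved by 2. On the D3 side, Kruppel-like factors went from 5 to 3, cytochromes P450 from 7 to 5 and glutathione genes from 9 to 7. The proteasome went from 15 to 13 there, heat shock chaperones from 20 to 18 and sulfur amino acids from 5 to 3. On the E18 side, matrix went from 19 to 17. Some list counts rose, such as cholesterol synthesis from 13 to 14. Probe sets called higher at D3 went from 2455 to 2143, and those higher at E18 from 1610 to 1734. Z-linked genes had 34 of 609 higher at E18 and 106 higher at D3, with a median ratio of -0.03. Of 12356 autosomal genes 749 and 1325 were higher. These counts include E18 replicate 2, whose Z-linked values were lower, and were not made without it.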

How the data were processed

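Expression was measured in total liver RNA of 24 chickens, 4 at each of 6 ages, and 1 liver went on each array. The deposited values are the authors' log2 intensities from robust multi-array averaging (RMA), which corrects background, quantile-normalizes the arrays and summarizes probes per probe set, and they used limma 3.30.13. RMA forces equal distributions on all arrays, so a shift common to all genes is not visible. Raw scans were not used here. The annotation gave 27168 of 38439 tested probe sets 1 gene symbol, 177 several and 11094 none, and 96 control probe sets were left out. Each gene took its probe set with the highest mean over 24 arrays.

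The fit was made in limma 3.58.1 (R 4.3.3) with 1 mean per age over all 24 arrays, 18 residual degrees of freedom and empirical Bayes moderation, and p-values were adjusted by Benjamini-Hochberg over all 38439 probe sets. Single steps and the comparison itself shared this fit. A call needed an adjusted p up to 0.05 together with a log2 ratio of at least 0.75 in size, as in the study's methods. Near background means under the 25th percentile of the probe set means over the 24 arrays, 4.43. The fit was tested on simulated data. Tables and figures were made with pandas 2.3.3, numpy 2.4.6 and matplotlib 3.10.9. Replicates were separate livers. The p-values test the difference between ages against the spread between livers of the same age, pooled over the 6 ages.

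By the study's methods, each of 4 hybridization days held 1 liver of each age. The replicate number in the title was taken as that day, which the titles do not state. Deviations from age means correlated at a mean r of 0.071 over 60 same-day pairs and -0.0234 over 180 different-day pairs. Since each age mean was subtracted, the different-day value nearly follows from the same-day value and is not a separate observation. For E18 and D3 the same-day r was 0.0810, 0.0268, -0.0479 and 0.164.

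Genes were named as the 15 of highest and the 15 of lowest ratio among called genes whose arrays did not overlap, the called members of the lists with the largest ratios together with defining members even if not called, and genes the study names for this comparison. GPAT4 and FADS6 were added after their values were seen. Members and lists were chosen with earlier results of these data known. Alternatives were cyclic loess, array weights, trended and robust moderation, a filter on low signals, the 8 arrays alone, a test against the ratio limit itself (treat), other probe sets per gene, the replicate block and leaving out each array. A planned search of promoters was not run, since no promoter sequence was used here.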

Additional observations from a re-analysis of the deposited data

Results flagged for a closer look

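Among the named genes, 368 groups of 4 arrays were tested for a single array far from the others (gap to the nearest array over the whole range above Dixon's limit at the 95% level), and 25 passed. Chance alone gives about 1 in 20 groups. The arrays concerned were E18 replicate 2 in 6 groups, replicate 1 in 5, replicate 4 in 2 and replicate 3 in 1, and D3 replicates 1 and 4 in 4 each, replicate 3 in 3 and replicate 2 in none.

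On E18 replicate 1, UNC93A was at 5.46 (the other 3 embryos at 10.12 to 10.47), TFPI at 5.66 (8.87 to 9.25), FABP1 at 8.36 (9.59 to 9.80), ACSL5 at 9.73 (10.55 to 10.66) and ACSBG2 at 7.03 (7.22 to 7.24), all below the rest. On E18 replicate 2, PCK1 at 4.93 (7.78 to 8.20), TDH at 10.11 (12.03 to 12.08), PAICS at 10.69 (11.68 to 11.72) and SREBF1 at 5.77 (6.24 to 6.30) were low, and HPX at 11.13 (8.11 to 8.59) and the W-linked HINTW at 12.17 (5.48 to 6.05) were high. KLF9 was at 4.81 (5.41 to 5.42) and PLIN2 at 9.62 (9.84 to 9.87) on E18 replicate 4, and UGP2 at 12.12 on E18 replicate 3, where the others were at 11.83.

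Among the chicks, D3 replicate 1 had ACSBG2 at 12.68 (11.79 to 11.92), TK1 at 10.76 (10.42 to 10.47) and CCT2 at 11.80 (11.47 to 11.48), all high, and SIRT1 at 5.50 (5.99 to 6.05), low. D3 replicate 3 was high for MSMO1 at 13.62 (13.13 to 13.16), DHCR7 at 10.26 (9.58 to 9.64) and GHR at 10.59 (10.16 to 10.23). D3 replicate 4 was high for ABCB11 at 11.81 (11.34 to 11.42), FGB at 14.36 (14.23 to 14.25) and SULT1B1 at 8.56 (7.84 to 7.87), and low for SARDH at 6.35 (7.52 to 7.67).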

How the results depend on the processing

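With each of the 8 arrays left out in turn, called probe sets ranged from 3877 to 4193 (1552 to 1734 higher at E18, 2143 to 2641 at D3), called genes from 2091 to 2299 (754 to 824, 1267 to 1545), called list members from 362 to 383, and genes called in E18 vs. E20, E20 vs. D1 and D1 vs. D3 from 487 to 585, 738 to 752 and 510 to 615. Treat, which tests against the limit of 0.75 itself, called 1273 probe sets (494 and 779), 749 genes (267 and 482), 203 list members and 60, 158 and 111 genes in the steps. It is stricter by construction, and no proteasome gene passed it. With the replicate number, taken as the hybridization day, as a block, 4095 probe sets, 2230 genes and 381 list members were called. In the steps 566, 767 and 611 genes were called, and no call changed among the 159 called named genes. Cyclic loess called 4023 probe sets (1766 and 2257) and 2154 genes (901 and 1253). Array weights gave 2184 genes, trended and robust moderation 2214, the filter on low signals 2229 and the 8 arrays alone 2190. The probe set of largest variance gave 2459 genes and the mean of the probe sets 1674. PFKFB1 reversed to -0.96 (adjusted p = 0.339) with its probe set of largest variance, against 1.69. Of 2703 pairs of a called named gene and an alternative, 2663 kept direction and call and 39 lost the call, while 9 pairs of a gene that was not called gained it. With the mean of the probe sets, GPAT4 (0.64), LPIN2 (0.57), INSR (0.66), PAICS (-0.71), COL1A2 (0.71), VWF (0.56), PER3 (-0.38) and SIRT1 (0.74) lost the call. ABCB11 and CLOCK lost it under cyclic loess (-0.69 each), CLOCK also without D3 replicate 2 (-0.74). The cause was not tested.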
